A study of Homo sapiens with 7 samples.

Results

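The regions described here were the distal H3K4me1 intervals found in KMT2D-KD cells and not in NC cells, 24225 of the 71886 distal intervals, and of the 92135 intervals in all, of the KMT2D-KD H3K4me1 list. An interval is a stretch of hg38 where peak calling found more ChIP fragments than the input would give. An interval of the KMT2D-KD list was taken when its midpoint lay more than 10 kb from the 5′ end of every protein-coding gene of GENCODE release 44 and when no interval of the NC list lay within 1000 bases of it. These are called KD-only intervals below. The other 47661 distal intervals of the KMT2D-KD list, which had an NC interval within 1000 bases, are called shared. The same rule with the lists exchanged gave 8336 NC-only intervals among 51928 distal intervals of the NC list, which held 64843 intervals in all.

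Both lists came from SW1990, a cell line derived from human pancreatic cancer, profiled by ChIP-seq for KMT2D, EBF2 and H3K4me1. The labels give shRNA as the treatment of the cells of all 6 ChIP libraries, a negative control in NC and a knockdown of KMT2D in KMT2D-KD, and the study describes its KMT2D knockdown lines as stable. The series held 7 samples, namely 1 library for each of the 3 targets in each of the 2 conditions and 1 input, whose labels name no condition. With 1 library per group there is no replicate, so every difference below compares 1 library with another and no test between conditions could be made. The level of KMT2D in these cells was not analysed here.

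H3K4me1, histone H3 carrying a lone methyl group on lysine 4, marks enhancers away from gene starts, in their primed as well as their active state. KMT2D and its close relative KMT2C are the main enzymes that place it there, usually after a sequence-specific transcription factor has opened the site. AP-1 factors, pairs of FOS and JUN proteins, are among the factors most often found at enhancers of epithelial cancer cells.

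The regions were chosen by their presence in the KMT2D-KD list and absence from the NC list, so these values and the strength of the call are given as description. Sequence, motifs, the KMT2D and EBF2 lists and, apart from the distance to gene starts, position along genes and chromosomes were not used in the choice. To show what such regions look like, 200 bases around the summit, the point of strongest enrichment, are printed for 1 of the strongest KD-only intervals that hold no tandem repeat and that meet no KMT2D or EBF2 interval, and for 4 others. They are on the forward strand of hg38, and the place named is that of the interval's midpoint. Capitals mark the TEAD motif GGAATG on either strand.
chr9:91798936-91799135, in an intron of ROR2: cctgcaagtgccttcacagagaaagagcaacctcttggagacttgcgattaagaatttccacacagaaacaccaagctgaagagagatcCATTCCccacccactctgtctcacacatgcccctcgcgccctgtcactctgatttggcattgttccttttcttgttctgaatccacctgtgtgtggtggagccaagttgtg
These 4 are the strongest intervals of the same kind with an AP-1 motif within 100 bases of the summit, chosen after the values were seen, because the AP-1 motif recurs in the results below. Capitals mark TGANTCA, where N is any base; the motif reads the same on both strands.
chr20:36169547-36169746, in an intron of EPB41L1: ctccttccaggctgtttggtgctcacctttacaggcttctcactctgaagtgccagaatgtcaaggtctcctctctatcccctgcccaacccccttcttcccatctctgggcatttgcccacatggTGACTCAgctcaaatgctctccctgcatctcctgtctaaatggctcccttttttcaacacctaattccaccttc
chr1:234957554-234957753, in an exon of the non-coding LINC02971 or LNCATV, nearest to TOMM20: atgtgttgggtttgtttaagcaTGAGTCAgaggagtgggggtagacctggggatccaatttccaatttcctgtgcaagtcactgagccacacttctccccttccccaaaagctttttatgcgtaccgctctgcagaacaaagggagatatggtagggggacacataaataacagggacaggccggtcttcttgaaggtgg
chr1:204647521-204647720, in an intron of LRRN2: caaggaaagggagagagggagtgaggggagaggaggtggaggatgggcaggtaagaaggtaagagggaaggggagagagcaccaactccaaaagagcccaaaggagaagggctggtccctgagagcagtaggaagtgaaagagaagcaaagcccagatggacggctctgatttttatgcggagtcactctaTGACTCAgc
chr5:150474907-150475106, between genes, nearest to NDST1: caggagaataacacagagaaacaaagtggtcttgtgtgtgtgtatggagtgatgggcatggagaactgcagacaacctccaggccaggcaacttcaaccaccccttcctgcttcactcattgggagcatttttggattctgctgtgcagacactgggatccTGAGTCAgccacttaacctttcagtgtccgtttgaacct

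The KD-only intervals made up 33.7% of the distal KMT2D-KD intervals, with an exact 95% interval of 33.4% to 34.0% that, as all intervals given here, covers counting error only. The NC-only intervals made up 16.1% of the distal NC intervals, so KD-only intervals were 2.91 times as many. The KMT2D-KD list was also the longer one, with 1.38 distal intervals for each in NC. When equal numbers of the strongest intervals of both lists were compared, 26.1% of the distal KMT2D-KD intervals and 24.3% of the distal NC intervals had none of the other list nearby. The shares of the conditions were then much closer. With a −log10 q of at least 5 asked of both lists the shares were 50.4% and 21.3%. At the edge of the rule, 668 KD-only intervals lay up to 100 bases beyond the limit of 1000 bases from an NC interval and 710 shared ones up to 100 bases within it. Their median fold enrichments were 3.79 and 3.93 and their median −log10 q 3.32 and 3.49, so the regions just inside and just outside differed little. The members closest to a gene start lay 10002, 10003 and 10004 bases away.

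KD-only intervals were weak and narrow calls. Their median fold enrichment over the input was 3.79, against 4.55 in shared intervals and 3.74 in NC-only intervals. The median −log10 q was 3.11 in KD-only, 4.75 in shared and 2.85 in NC-only intervals. Their median width was 283 bases, with 1.22% wider than 1000 bases, against 473 bases and 17.2% in shared intervals. NC-only intervals had a median width of 276 bases. Together the KD-only intervals covered 8.29 Mb and the shared ones 31.0 Mb. At a −log10 q of at least 5 there were 3218 KD-only intervals (13.3%), and at a −log10 q of at least 10 there were 184 (0.760%). The corresponding shares of shared intervals were 43.2% and 11.1%.

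The number of sequenced fragments under each summit could be recovered from the fold enrichment and the p-value for 24223 of the 24225 KD-only intervals. Their median was 10 fragments (5th to 95th percentile 8 to 16), against 13 in shared and 11 in NC-only intervals. The KD-only share of distal KMT2D-KD intervals fell from 63.7% at 7 fragments to 46.5% at 10, 19.1% at 15 and 3.82% above 20 fragments. At the lowest background of each library, 7 fragments were enough for a call in KMT2D-KD and 8 in NC, whose lowest background, the number of fragments expected at a site without enrichment, was 1.13 times that of KMT2D-KD. A count of 10 fragments has an exact Poisson interval of 4.80 to 18.4, or 5.42 to 20.8 at the NC background. For 20715 KD-only intervals (85.5%), those with up to 13 fragments, this interval reached below the 8 fragments needed in NC. The same held for 55.2% of the shared intervals. At this depth, an absence from the NC list could not be told from a count just under the threshold for most KD-only intervals taken singly. The other 3508 KD-only intervals (14.5%) had more fragments than that. A −log10 p below the weakest one in the NC list was found in 502 KD-only intervals (2.07%).

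**Figure D1:**
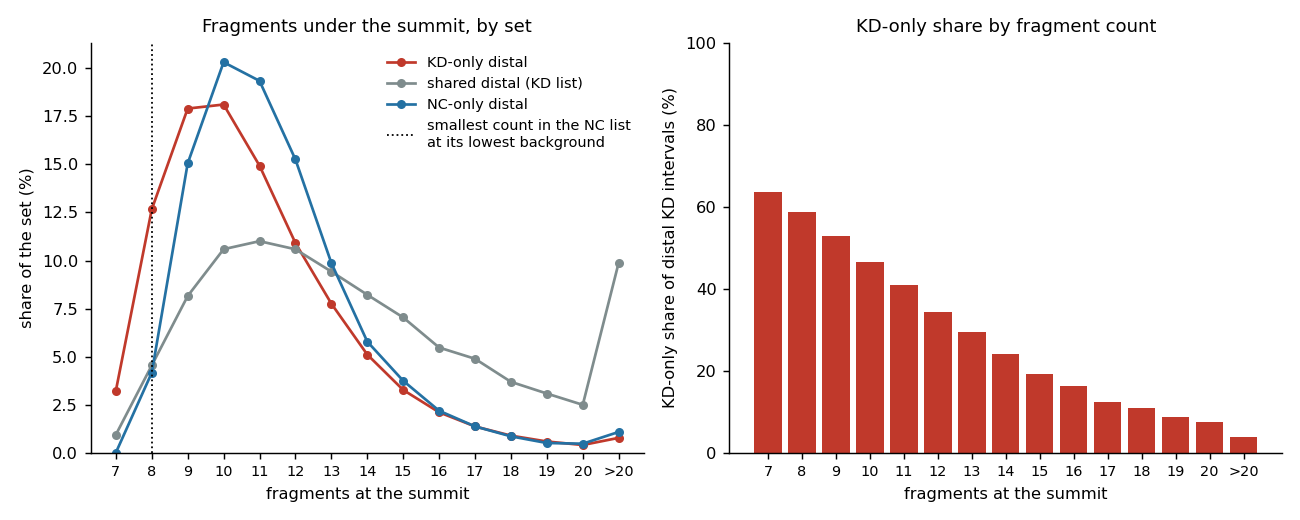
Left, share of each set (y axis, %) by the number of fragments recovered at the summit (x axis), for KD-only (red), shared (grey, KMT2D-KD list) and NC-only (blue) distal intervals, with a dotted line at the 8 fragments that the NC list needed at its lowest background. Right, KD-only share (%) of the distal KMT2D-KD intervals with each fragment count, falling from 63.7% at 7 fragments to 3.82% above 20.

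The KD-only intervals lay at all distances from the nearest NC interval, with a median of 9274 bases. There were 4258 (17.6%) within 2 kb, 4614 (19.05%) at 2 to 5 kb and 2048 (8.45%) beyond 100 kb. NC-only intervals were spread in nearly the same way around KMT2D-KD intervals, with 18.6%, 18.97% and 7.17% in these ranges and a median of 8910 bases. The median fold enrichment of KD-only intervals was between 3.79 and 3.87 in every range, while their median −log10 q went from 3.32 at 1 to 2 kb to 2.81 beyond 100 kb. Within their own list, 8020 KD-only intervals (33.1%) had within 5 kb an interval that NC shared, 6587 (27.2%) had there other intervals that NC lacked and none that it shared, and 9618 (39.7%) had no other KMT2D-KD interval at all. The nearest other interval of the KMT2D-KD list was a median of 2530 bases from a KD-only interval and 452 bases from a shared one. An NC-only interval lay a median of 8421 bases from the next interval of the NC list, so KD-only intervals were less isolated within their list than NC-only ones, in a list that was also longer.

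The base composition of the KD-only intervals differed from that of every other set. Their median GC content was 46.7%, against 44.5% in shared intervals of the same list and 43.0% in NC-only intervals. The shared intervals themselves had a median of 44.5% as called in KMT2D-KD and 43.4% as called in NC, with the KMT2D-KD median the higher one on all 23 chromosomes compared. The KD-only median was above the shared and above the NC-only median on the same 23 chromosomes (1 to 22 and X), by 0.835 points over shared on chromosome 4 up to 3.16 points on chromosome 11. Among intervals of at most 400 bases, the medians were 47.1% for KD-only, 45.3% for shared and 43.5% for NC-only. Among those with a −log10 q of at least 5 they were 47.1%, 44.5% and 42.7%.

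Read the other way, the KD-only share rose with GC content above 45%. It was 28.3% (26.9% to 29.7%) below 35% GC, 26.6% (25.8% to 27.4%) at 35% to 40%, 27.6% (27.0% to 28.3%) at 40% to 45% and 34.0% (33.3% to 34.6%) at 45% to 50% GC. At 50% to 55% GC this was 47.3% (46.5% to 48.2%) and at 55% to 60% GC it was 58.2% (55.7% to 60.7%). The NC-only share of distal NC intervals showed no such rise and stood at 16.9% at 35% to 40%, 18.0% at 50% to 55% and 16.8% at 55% to 60% GC. The number of distal KMT2D-KD intervals for each distal NC interval moved with it, from 0.835 below 35% GC to 4.62 at 55% to 60% GC. This shift in composition was thus present in the distal KMT2D-KD intervals as a whole, shared ones included. Whether it arose in the cells or in library preparation and sequencing cannot be told apart with 1 library per condition.

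**Figure D2:**
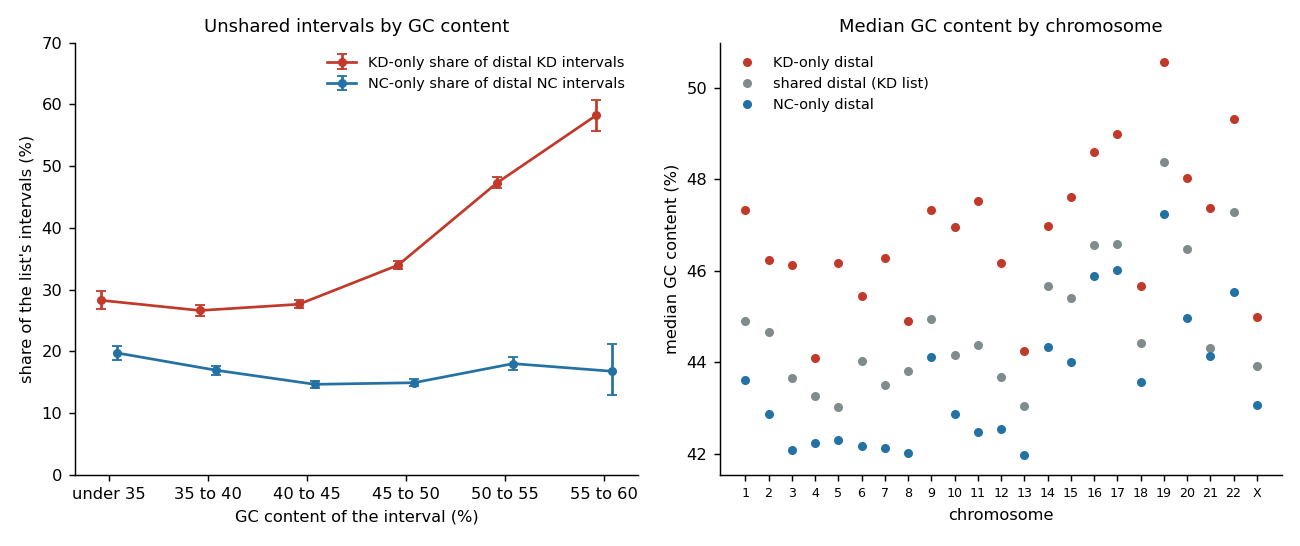
Left, KD-only share of distal KMT2D-KD intervals (red) and NC-only share of distal NC intervals (blue) in % (y axis) by GC content of the interval (x axis, %), with exact 95% counting intervals; the red share rises from 26.6% at 35% to 40% GC to 58.2% at 55% to 60% GC. Right, median GC content (y axis, %) on each of 23 chromosomes for KD-only (red), shared (grey, KMT2D-KD list) and NC-only (blue) intervals; the red point is the highest on every chromosome.

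For transcription factor motifs, 20 were searched on both strands in the 200 bases around each summit and, for comparison, in windows of 200 bases centred 2000 bases to either side. The AP-1 motif TGANTCA was present at 2172 KD-only summits, a share of 8.97% (8.61% to 9.33%), against 6.29% (6.07% to 6.51%) beside them. At shared summits the AP-1 share was 7.71% (7.47% to 7.95%) with 6.87% beside. At NC-only summits it was 10.7% (10.1% to 11.4%) with 6.52% beside. In these 200 bases, intervals found in either library alone thus held AP-1 more often than shared ones did, and NC-only intervals most often. KD-only calls were also weaker than shared ones, and the AP-1 shares of both sets by strength of call are given below. In 500 bases around the summit the KD-only and shared shares were nearly equal, at 23.5% and 23.2%, and the NC-only share was 28.8%. The KD-only share was above that beside the summits on all 23 chromosomes, and above that of shared summits on 21 of them. At matched GC content the order was the same: in summits of 40% to 45% GC the share was 9.45% in KD-only and 8.29% in shared intervals, and at 50% to 55% GC 8.45% and 7.28%. Without the 260 KD-only intervals that hold a tandem repeat it was 9.02%.

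The motif was commoner in the more solitary KD-only intervals. The AP-1 share was 8.18% (7.62% to 8.77%) at 1 to 5 kb from an NC interval, 9.12% at 5 to 20 kb, 9.52% at 20 to 100 kb and 10.2% (8.93% to 11.6%) beyond 100 kb, while beside the summits it was between 5.99% and 6.64%. NC-only intervals had 9.60%, 10.9%, 12.3% and 10.7% in the same ranges of distance from a KMT2D-KD interval. In KD-only intervals with no other KMT2D-KD interval within 5 kb the AP-1 share was 10.6% (9.98% to 11.2%), and in those with a shared neighbour 7.96% (7.37% to 8.57%). The solitary ones were also the weaker calls, with a median −log10 q of 2.81 against 3.32. The AP-1 share of KD-only intervals was lower in stronger calls. It was 9.40% at a −log10 q under 3, 8.92% at 3 to 5 and 7.52% (6.63% to 8.49%) at a −log10 q of at least 5. Beside the summits it was 6.23% under 3 and 6.31% at 5 or more. Shared intervals had 8.47%, 8.22% and 6.91% (6.56% to 7.26%) in the same ranges, closer to the KD-only shares than over all summits. Around the summit the motif formed a pair of shoulders. KD-only intervals held 6.01 motifs per 100 intervals in the bin 100 to 200 bases to the left and 5.89 in the matching bin to the right, with 5.13 and 4.61 in the bins of 100 bases on either side of the summit itself. At 1400 to 1500 bases this had dropped to 3.20 and 3.17. The dip was deeper in shared intervals, with 4.16 and 4.21 at the summit and 6.97 at 300 to 400 bases to the left.

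Other motifs also differed between the summits and their surroundings, some of them by more than AP-1. The TEAD motif GGAATG, bound by the DNA-binding partners of YAP, was found at 12.3% of KD-only summits (11.9% to 12.7%) and in 10.8% of windows beside, against 12.4% and 11.4% for shared and 13.5% and 10.8% for NC-only intervals. TEAD was found at 12.4% of KD-only summits with AP-1 and at 12.3% of those without it. The short GC-rich KLF core CCACCC was found at 16.3% of KD-only summits and in 13.1% of windows beside, 3.27 percentage points more. The core exceeded its surroundings in shared and NC-only intervals too, by 2.30 and 2.16 points. The longer KLF motif CCCCGCCC went the other way, at 0.541% of KD-only summits (0.452% to 0.641%) and 0.700% of windows beside. Its shares were 0.361% and 0.576% for shared and 0.408% and 0.498% for NC-only intervals. The E-box CAGGTG, which ZEB and SNAI repressors bind, was found at 20.5% of KD-only summits and in 17.7% of windows beside. The CAGGTG shares were 18.5% and 16.7% in shared intervals, and 15.1% and 15.1% in NC-only intervals. KD-only intervals also had the higher GC content given above, and its part in these shares was not tested. The MYC E-box CACGTG stood at 2.70% of KD-only summits with 2.07% beside, and the NF-kB motif GGGANTTCC at 0.743% with 0.491%. For shared intervals the CACGTG shares were 2.32% and 1.99% and the GGGANTTCC shares 0.625% and 0.512%. For NC-only intervals they were 2.17% and 1.92%, and 0.564% and 0.426%. Motifs of pancreatic and endodermal factors were as frequent at the summit as beside it within counting error: the FOXA motif TGTTTAC was at 2.77% against 2.87%, the motif AGATAAG of GATA factors at 2.81% against 2.73% and the HNF4A motif CAAAGTCCA at 0.293% against 0.237%. The EBF motif was present at 93 KD-only summits, 0.384% (0.310% to 0.470%), with 0.291% beside. Its shares were 0.464% and 0.347% for shared and 0.264% and 0.222% for NC-only intervals. CTCF, the factor of insulator sites, had its motif at 9 KD-only summits. A match shows letters only and not that the factor was bound.

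**Figure D3:**
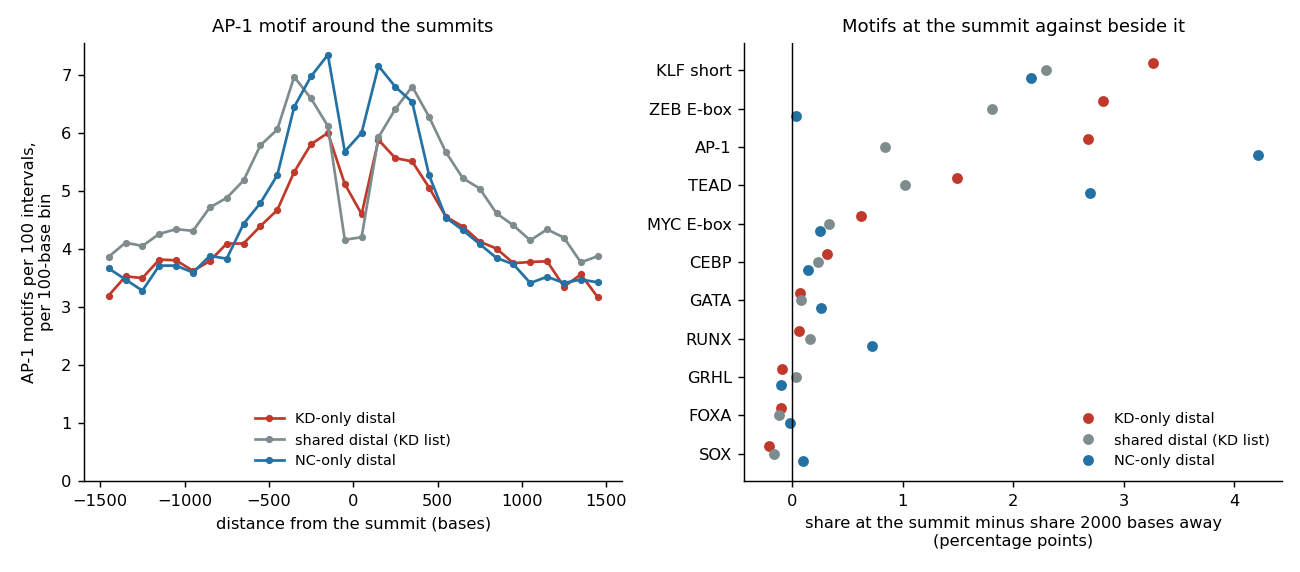
Left, AP-1 motifs per 100 intervals (y axis) in bins of 100 bases by distance from the summit (x axis) for KD-only (red), shared (grey, KMT2D-KD list) and NC-only (blue) intervals, all of which show a pair of shoulders with a dip at the summit. Right, for the motifs present at 1% or more of KD-only summits, the share at the summit minus the share 2000 bases away (x axis, percentage points) in the same sets; for AP-1 the difference is 2.68 points in KD-only, 0.842 in shared and 4.22 in NC-only intervals.

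Hardly any KD-only interval met an interval of the KMT2D or EBF2 libraries. Between 31 and 38 of the 24225 overlapped each of these 4 lists, 42 (0.173%, 0.125% to 0.234%) overlapped at least 1 of them and 30 overlapped all 4. For shared intervals the share with at least 1 was 0.151% and for NC-only intervals 0.228%, within counting error of it. Of the 42, 39 held a tandem repeat, a run of bases repeated with a period of at most 60 bases, as did 1.07% of all KD-only intervals. The remaining 3 were chosen for naming after their values were seen and lay at chr4:49316851-49317050, chr10:40596223-40596562 and chr22:12176878-12177190, each 330675 bases or more from any protein-coding 5′ end. In that order, the share of bases matching 1 period further on was 0.469, 0.369 and 0.441, under the 0.5 that called a repeat. Their fold enrichments were 2.83, 2.90 and 1.60. A repeat with a period over 60 bases could have been missed. The 10 KD-only intervals with the highest −log10 q all held a tandem repeat, and 7 of them were in all 4 lists. The distribution of KMT2D itself over the KD-only regions could not be described from so few intervals.

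Along genes, KD-only intervals were placed much like the other distal ones. Of them, 15397 (63.6%) had their midpoint in an intron of an annotated gene, 1084 (4.47%) in an exon and 7744 (32.0%, 31.4% to 32.6%) between genes. For shared intervals the share between genes was 30.1% (29.7% to 30.5%) and for NC-only intervals 33.2% (32.2% to 34.2%). The distance from the nearest protein-coding 5′ end had a median of 65210 bases in KD-only, 67096 in shared and 86559 in NC-only intervals. The KD-only share of distal KMT2D-KD intervals was 36.1% (35.2% to 37.1%) at 10 to 20 kb, 32.3% (31.6% to 33.0%) at 50 to 100 kb and 37.1% (35.6% to 38.7%) beyond 500 kb. The NC-only share of distal NC intervals was 14.4% at 10 to 20 kb and 28.0% beyond 500 kb, so the far intervals weighed more in the NC-only set.

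The KD-only share differed between chromosomes by more than the counting intervals, which are too narrow since neighbouring intervals are not independent. It was highest on chromosome 4 at 51.1% (48.9% to 53.4%), X at 50.9% (48.3% to 53.6%) and 19 at 50.6% (47.5% to 53.6%), and lowest on chromosome 11 at 26.8% (25.3% to 28.2%). On all 23 chromosomes it was above the NC-only share, which ran from 12.4% on chromosome 17 to 23.9% on X. Chromosomes with few NC intervals had the highest KD-only shares. Across the 23 chromosomes the share and the number of distal NC intervals per Mb were related with Pearson's r of −0.91 and Spearman's rho of −0.88. This is given as a description without a test, since the points share both libraries and a sparse NC list leaves fewer intervals that could lie within 1000 bases. Per Mb of chromosome, KD-only intervals ran from 4.54 on X to 12.4 on chromosome 17. Chromosome Y held 4.

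**Figure D4:**
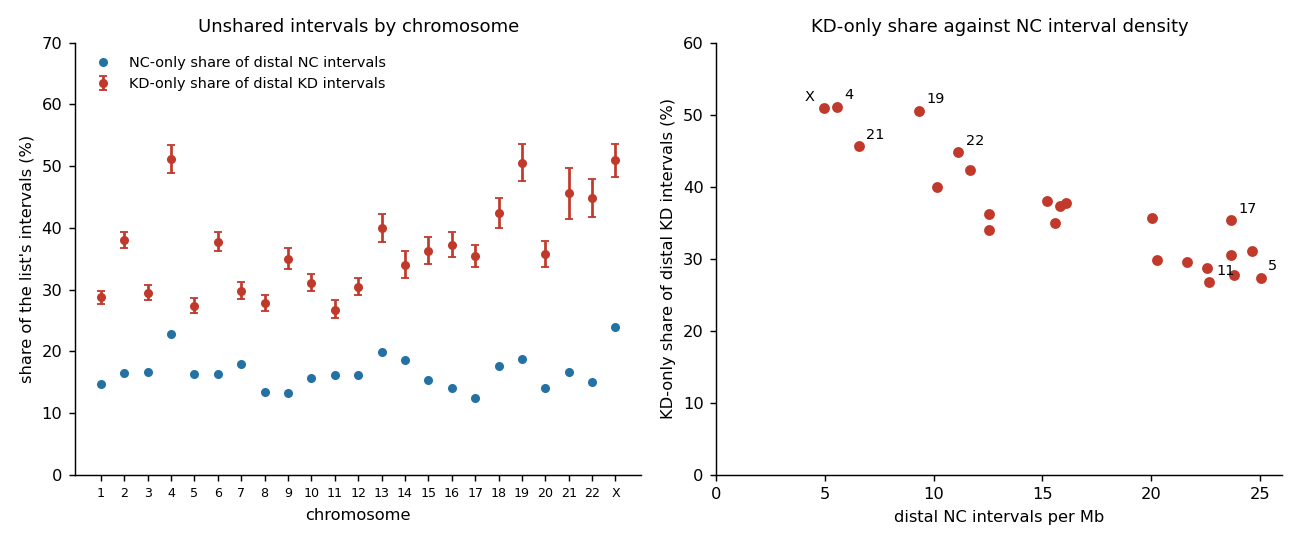
Left, KD-only share of distal KMT2D-KD intervals (red, with exact 95% counting intervals) and NC-only share of distal NC intervals (blue), in % (y axis), by chromosome (x axis); red is above blue on all 23. Right, KD-only share (y axis, %) against distal NC intervals per Mb (x axis), 1 point per chromosome with some named; the share is 51.1% on chromosome 4, which had few NC intervals, and 26.8% on chromosome 11, which had many.

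Part of the KD-only intervals lay in groups. Linked when at most 12500 bases apart, 7115 (29.4%, 28.8% to 29.9%) fell into 1868 clusters of at least 3, while 10972 stood alone. Shared intervals were in such clusters at 70.2% and NC-only ones at 7.11%, and the sets differ in size, which alone changes how many lie near each other. The largest group held 21 KD-only intervals over 78.7 kb at chr4:41370694-41449350 in LIMCH1, with 12 NC intervals among them, a median fold enrichment of 4.14 and a highest of 6.83. In NFIC, a nuclear factor I gene, 11 lay at chr19:3380193-3403441, and in ANKRD11, a chromatin regulator, 11 at chr16:89432744-89476831. A further 11 lay within 13.99 kb in HPCAL1 at chr2:10387637-10401626, with ODC1, the first enzyme of polyamine synthesis, as the nearest 5′ end. These 11 were the only H3K4me1 intervals there in either list, with a median fold enrichment of 4.55 and the nearest NC interval 1878 bases away.

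There were 149 clusters, with 507 KD-only intervals, that had no NC interval within 50 kb. The largest held 7 intervals over 12.8 kb in PIEZO1, a mechanically gated ion channel, at chr16:88756612-88769447, where the nearest NC interval was 94322 bases away and the median fold enrichment was 4.75. Groups of 6 lay with their midpoint 19141 bases from the 5′ end of CAMK1D, a calcium-dependent kinase (chr10:12325886-12334927, nearest NC interval 120504 bases away), in APBB2 (chr4:41070234-41075200, 67340 bases), in MAST4 (chr5:67030653-67034021, 70120 bases) and 364337 bases from the 5′ end of VRK1, a nuclear kinase and the nearest protein-coding gene start (chr14:97156646-97166636, 153149 bases). The median fold enrichment in these 4 groups was 4.54, 4.74, 3.25 and 3.49.

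Each KD-only interval was given to the protein-coding gene with the nearest 5′ end. At least 1 KD-only interval fell to 7325 of 20033 genes (36.6%), with a median of 2 per such gene, at least 5 at 1598 genes and at least 10 at 459. The highest number was 34, reached at PDE3A, which degrades cAMP, and at RAB3C, a small GTPase of secretory vesicles. At PDE3A these were among 90 distal KMT2D-KD intervals, 24 KD-only intervals lay in the gene body, and 6 of 58 distal NC intervals were NC-only. At RAB3C they were among 78, and 16 of the 34 were more than 20 kb from any NC interval. The 20 genes with the most KD-only intervals had between 23 and 34, in a background of 30 to 167 distal KMT2D-KD intervals each, so that the shared intervals at them ranged from few to many.

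The share tells these genes apart better than the number. It was highest at DNAJB6, a chaperone partner of HSP70, where 25 of 30 distal KMT2D-KD intervals (83.3%) were KD-only and none of 4 distal NC intervals was NC-only. CELF2, an RNA-binding regulator of splicing, had 27 of 39 (69.2%), 16 of them more than 20 kb from any NC interval and 5 with an AP-1 motif. NEDD4L, a ubiquitin ligase, had 27 of 42 (64.3%), with a highest fold enrichment of 9.11. NEBL, an actin-binding protein, had 27 of 47 (57.4%) and the Krüppel-like factor gene KLF6 24 of 42 (57.1%). TNFAIP3, which encodes the A20 brake on NF-kB, had 24 of 46 (52.2%), all outside the gene body, with 1 NC-only interval among 19 and an AP-1 motif at 5 of the 24. The lowest share was at MYC, where 28 of 167 (16.8%) were KD-only, and shared intervals made up the rest. IRS2, an adaptor of the insulin receptor, had 29 of 97 (29.9%) and 13 NC-only intervals of 78. LIMCH1 had 28 of 75 (37.3%) and 1 NC-only interval of 41. Between these lay NCKAP5 with 24 of 49, FOXL1, a forkhead factor of gut mesenchyme, with 23 of 49 and SMAD2, a transducer of TGF-beta signals, with 25 of 55. FNDC3B had 24 of 66, TBL1XR1, a part of nuclear corepressor complexes, 24 of 86, AOPEP, an aminopeptidase, 26 of 96 and AUTS2 24 of 94. Over the 20 genes with the most KD-only intervals, the number with an AP-1 motif ran from 0 to 5, with a median of 2. That number was 0 at NEDD4L, LIMCH1 and SMAD2, and CELF2 and TNFAIP3 had the highest. Over all KD-only summits 8.97% held the motif.

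Some genes had KD-only intervals around a body with no NC interval within 50 kb. There were 1042 such genes with 2585 KD-only intervals. MARCKS, a kinase substrate at the cell membrane, had the most, 23 of 39 distal KMT2D-KD intervals (59.0%), all at least 138 kb from its 5′ end. TWIST2, a transcription factor of epithelial-mesenchymal transition (EMT), had 17 of 25 (68.0%), of which 12 were more than 20 kb from an NC interval and the strongest had a fold enrichment of 9.11, and none of its 5 distal NC intervals was NC-only. FOXA2, a pioneer factor of endoderm, had 14 of 25 (56.0%) with a median fold enrichment of 4.93. All 14 lay 104 to 215 kb from its 5′ end, 6 of them more than 20 kb from an NC interval, and FOXA2 had 10 distal NC intervals. COG6, a part of the Golgi tethering complex, had 14 of its 20 distal KMT2D-KD intervals. These lay 233 to 503 kb from its 5′ end, 3 of them more than 20 kb from an NC interval. B3GALT2, a galactosyltransferase, had 14 of 21 (66.7%) and 7 NC-only of 14 distal NC intervals.

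Gene lists were described by the KD-only share of the distal KMT2D-KD intervals nearest to their genes, to be read against 33.7% over all such intervals. All 292 genes of the 14 lists matched the annotation, and the pooled share was 30.8% (29.3% to 32.4%), against 33.8% for all other genes. The intervals near a gene are not independent, so the counting intervals are too narrow, and no list was tested. At a −log10 q of at least 5 in the KMT2D-KD list, where 13.5% of all distal intervals were KD-only, the lists ran from 3.03% for p53 targets to 42.2% for EMT genes.

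Of 18 EMT regulators and mesenchymal genes, 16 had distal KMT2D-KD intervals and 15 had a KD-only one. Their share was 84 of 192 (43.8%, 36.6% to 51.1%), with a median fold enrichment of 4.02, and their NC-only share was 32.6% (24.9% to 41.1%) against 16.1% over all distal NC intervals. Besides TWIST2, FN1, the fibronectin gene, contributed 12 of 28. The list did not lean one way: 10 of its genes had more KD-only than NC-only intervals and 7 had more NC-only ones. Very long neuronal adhesion and synapse genes also had high shares in both directions, 170 of 421 (40.4%) KD-only and 26.6% NC-only, with 28 of 78 at CDH18, a cadherin. Within 100 kb of the gene starts their KD-only share was 24.6% (17 of 69), below that of all distal intervals. Glucose transport and glycolysis genes had 43 of 110 (39.1%), of which PFKP, a phosphofructokinase, gave 20 of 26 and HK2, a hexokinase, 6 of 13. Their NC-only share was 20.5%, and within 100 kb of the gene starts their KD-only share was 32.2% (29 of 90). The KD-only intervals of PFKP lay up to 606 kb from its 5′ end, and 4 of its 9 distal NC intervals were NC-only.

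Inflammatory cytokines and NF-kB genes had 55 KD-only of 143 (38.5%, 30.5% to 47.0%) and 6 NC-only of 79 (7.59%, 2.84% to 15.8%), 9.17 KD-only intervals for each NC-only one. TNFAIP3 (24) and NFKBIA, the inhibitor that holds NF-kB in the cytoplasm (10 of 18), made up most of them. Pancreatic and endoderm transcription factors had 123 of 367 (33.5%, 28.7% to 38.6%), at the share of all distal intervals, and 24 NC-only of 260 (9.23%, 6.004% to 13.4%). SOX9, a factor of ductal cells, gave 23 of 92 and KLF5 22 of 68. FOXA2, given above, added 14.

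TGF-beta and BMP signalling genes had 153 of 557 (27.5%, 23.8% to 31.4%) and 12.3% NC-only. Among the signal transducers SMAD2 had 25 of 55, and among the receptors TGFBR2 had 23 of 88. Wnt pathway genes had a share of 32.0%, with 21 of 48 at ROR2, a receptor of WNT5A, and 19 of 44 at WNT5A, its ligand. The body of ROR2 held 21 KD-only intervals, with a highest fold enrichment of 10.6. Axon guidance genes had 121 of 406 (29.8%), or 16.4% within 100 kb of the gene starts, with 11 of 40 at the semaphorin co-receptor NRP1 and 11 of 28 at the netrin receptor UNC5D, and receptor tyrosine kinases and their ligands 61 of 247 (24.7%), with 10 of 62 at EGFR and 10 of 48 at IGF1R.

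The lowest shares were at YAP and TEAD genes and their targets, 43 of 266 (16.2%, 11.95% to 21.2%), of which CRIM1 held 19 of 74 and WWTR1, which encodes TAZ, 6 of 13. Squamous and basal epithelial genes had 28 of 139 (20.1%, 13.8% to 27.8%) and TP63, their master factor, 5 of 40 with 6 NC-only of 44, while GLI2, an effector of Hedgehog signalling, had 13 of 38. p53 targets and cell-cycle inhibitors had 17 of 84 (20.2%), of which the CDK4 and CDK6 inhibitor gene CDKN2B gave 4 of 38 and the stress gene GADD45A 3 of 19. Genes of AP-1 factors had 26 of 81 (32.1%), 8 of them at FOSL2 and 4 of 5 at FOSB, and genes of H3K4 methylation and demethylation 15 of 46 (32.6%), with 6 of 8 at KMT2C and 4 of 7 at WDR5, a core subunit of H3K4 methyltransferase complexes. KMT2C, the relative of KMT2D, had 2 distal NC intervals.

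**Figure D5:**
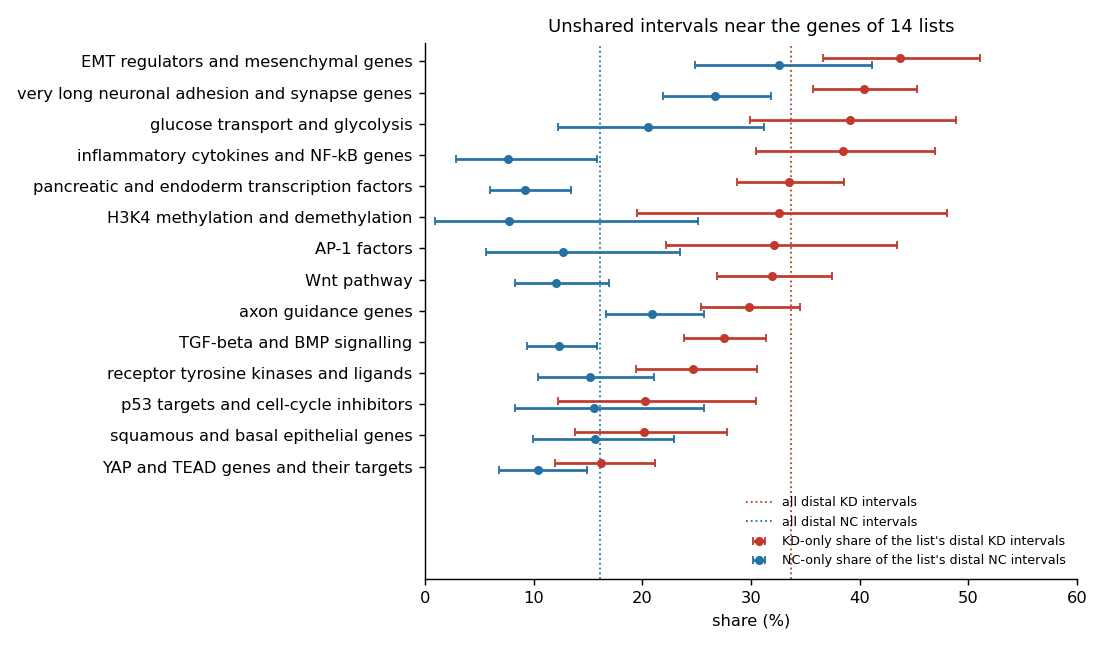
KD-only share of the distal KMT2D-KD intervals (red) and NC-only share of the distal NC intervals (blue) nearest to the genes of 14 lists (x axis, %), with exact 95% counting intervals; dotted lines mark the 33.7% and 16.1% over all distal intervals. The red share runs from 16.2% for YAP and TEAD genes to 43.8% for EMT and mesenchymal genes, and is above the blue share in every list.

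The strongest KD-only intervals without a tandem repeat and without a KMT2D or EBF2 interval had up to 29 fragments at a background of 1.64. The strongest, nearest to SULF1 (a sulfatase acting on heparan sulfate), lay in an intron of the non-coding LINC01592, with 29 fragments and an 11.4-fold enrichment, and its −log10 q was 21.8. The next was in an intron of ROR2 at chr9:91798813-91800083, 1271 bases wide with a fold enrichment of 10.6, 2355 bases from the nearest NC interval and with the TEAD motif shown above. An intron of GSE1 at chr16:85355549-85356138 and an exon of CSNK1E, a casein kinase, or its read-through gene at chr22:38296608-38297662 held intervals of 10.2-fold each with 26 fragments. Among the intervals with an AP-1 motif whose sequences are shown, those in EPB41L1 and LRRN2 were the farthest from NC intervals, at 63256 and 61132 bases, with fold enrichments of 8.10 and 7.94, and those nearest to TOMM20 and NDST1 lay 1456 and 3444 bases away with 8.77 and 8.18.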

How the data were processed

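ChIP-seq of SW1990 cells was deposited as 1 list of intervals per ChIP library (6 ChIP libraries), each called against the input. The authors cleaned the reads with in-house perl scripts and aligned them with bwa; the submitters' processing notes name BWA, MACS2, HOMER and hg38, and versions, peak-calling settings and the treatment of duplicates are not given in the sources used here. The deposited lists hold, per interval, a fold enrichment over the input (a ratio), −log10 values of the p-value and of the q-value, a display score and the summit offset.

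Intervals were used as deposited with Python 3.11.15, pandas 2.3.3, scipy 1.17.1 and pysam 0.24.0, on hg38 with GENCODE release 44; sequences were read from hg38. Fragments and background at a summit were solved from fold = (fragments + 1) / (background + 1) and the Poisson p-value, to within 0.001 in −log10 p. A tandem repeat was called when, for a period of up to 60 bases, at least 0.5 of the 200 bases around the summit matched the base 1 period further on. The scripts were tested on simulated data. Shares carry exact binomial (Clopper-Pearson) 95% intervals. Since duplicate reads may be present and intervals of 1 library are not replicates, these cover counting error only, and no p-value was computed between conditions.

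The intervals, gene lists, motifs and alternatives were chosen with earlier results of these data known. Genes named were the 20 with the most KD-only intervals as nearest 5′ end, the 5 with the most among genes with no NC interval within 50 kb of the body, and the 2 with the most in each gene list. For single intervals the rule took the 10 of highest −log10 q, of which only counts are given, the 5 highest without tandem repeat and without a KMT2D or EBF2 interval, and the 5 largest clusters of either kind. Part of what these rules name is not reported here.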

Additional observations from a re-analysis of the deposited data

How the results depend on the processing

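Of 35 alternatives, 9 gave a value close to the one reported. Each value compared was a share, median, count or ratio without a direction, so a reversal could not be seen. Close meant within the counting interval or, for the number of genes and the spread over chromosomes, within 1.5 times. The number of genes was 6382 when the 5′ end had to lie within 100 kb, against 7325. The spread was a ratio of 2.73 for KD-only intervals per Mb, against 1.91. No paired analysis was possible because each target and condition had 1 library, so leaving out a replicate was not possible either. The KD-only share (33.7%) was 52.3% when only overlap counted as shared, 21.4% beyond 5000 bases, 16.3% beyond 10000 bases and 33.2% when distal meant over 50 kb. Asking a −log10 q of at least 5 gave 13.5% when asked of the KMT2D-KD list alone and 50.4% when asked of both lists; it was 55.1% with a fold enrichment of at least 5 in both, 26.1% with equal numbers of top intervals and 42.2% after intervals within 1000 bases were merged. The NC-only share (16.1%) was 30.4% by overlap, 10.02% beyond 5000 bases, 3.69% and 21.3% with the q threshold in the NC list alone and in both, and 24.3% with equal numbers. Below the 1st percentile of −log10 p of the NC list lay 3.12% of KD-only intervals, and 46.6% lay between protein-coding genes. Their median GC content was 46.5% in 200 bases around the summit and 47.1% at a −log10 q of at least 5. The AP-1 share was 23.5% in 500 bases around the summit and 7.52% at a −log10 q of at least 5. In clusters of at least 3 lay 16.5% when linked within 5 kb and 43.1% within 25 kb. By gene body, 4550 genes held a KD-only interval. The pooled share of the gene lists was 27.5% within 100 kb and 13.9% at the q threshold, where the highest chromosome share was 3.47 times the lowest instead of 1.91. The causes were not tested. The alternatives without tandem repeats were chosen after seeing the data and moved neither the KD-only share (33.7%) nor the AP-1 share (9.02%) beyond counting error. Depth limits the single calls, since the median KD-only summit rested on 10 fragments.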
